A study of Mus musculus with 416 samples.

Results

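The motile cilia genes described here are 65 protein-coding genes among the 46517 gene rows of a striatal RNA-seq table. They were chosen by name: the symbol starts with Dnah, Cfap, Rsph, Drc or Tekt and a digit, or with Spag6, Spag16 or Spag17. The prefix Dnai belongs to the same naming rule and matched no symbol of the annotation used. The rule reads names alone, though it was set with earlier results of these data known. By the part of the axoneme they belong to, 5 are outer dynein arm heavy chains and 10 are inner arm heavy chains. A further 3 belong to the nexin-dynein regulatory complex, 8 to the radial spokes and 10 to the central apparatus, 5 are tektins, and 24 are other cilia and flagella associated proteins. The filter on low counts passed 64 of the 65, out of 22968 genes passed in all. The gene it removed was Cfap97d1, whose median was 0 in generations 22 and 23 and whose mean was 0.016 CPM (counts scaled to one library size).

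The study sequenced ribosome-depleted RNA of the striatum from 416 mice that had received no drug. They came from the Diversity Outbred stock (J:DO), an outbred population descended from several inbred founder strains, in which each animal carries its own mix of founder alleles. Each library came from its own animal number and carried a labelled sex and a breeding generation. Labelled female were 76 libraries of generation 21, 60 of generation 22 and 72 of generation 23, and labelled male were 74, 59 and 75. The labels name no treatment and no introduced allele, so sex and generation are the comparisons the labels allow. Per the labels' protocols the brains were hemisected and the striatum was dissected alongside hippocampus and prefrontal cortex.

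Motile cilia beat through dynein motors that slide the doublet microtubules of the axoneme against each other. Outer and inner dynein arms drive the sliding, and the nexin-dynein regulatory complex, the radial spokes and the central pair apparatus control it. In the forebrain such cilia are carried by ependymal cells, the multiciliated epithelium of the ventricle wall against which the striatum lies. The epithelial cells of the choroid plexus also carry cilia, whose motility was not examined here. The forkhead factor Foxj1 and the RFX factors are the known activators of motile cilia genes. Neurons and most other cells of the striatum carry a single primary cilium that lacks dynein arms.

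RFX factors bind the X-box, whose core is GTTGCC and which often holds a second, inverted copy. The promoters, 250 bases before to 50 after a gene's start, were read from RefSeq (GRCm38.p6), which held 61 promoters of 54 member genes. The core GTTGCC or its reverse complement GGCAAC was present in 24 of the 61 (39.3%), against 4111 of all 32851 promoters in the table (12.5%). The forkhead core TGTTTAC or its reverse complement GTAAACA was present in 4 of the 61 (6.56%), against 3.65% of all. The GTTGCC core followed by its inverted copy after 1 to 3 bases was searched after these counts were seen, and was found in 1 member promoter, that of Cfap298, and in 0.161% of all promoters. Below are the promoters of Cfap298 (chr16:90934800-90935099, minus strand), Cfap161 (chr7:83794790-83795089, minus strand), Spag16 (chr1:69826720-69827019, plus strand), Dnah10 (chr5:124724835-124725134, plus strand) and Dnah9 (chr11:66168502-66168801, minus strand). They show the strings as they lie in a gene of flat level, in 3 genes that varied more between libraries, and in a further variable gene that holds no match. Sequences run 5′ to 3′ along the gene, and capitals mark the core on either strand.
Cfap298: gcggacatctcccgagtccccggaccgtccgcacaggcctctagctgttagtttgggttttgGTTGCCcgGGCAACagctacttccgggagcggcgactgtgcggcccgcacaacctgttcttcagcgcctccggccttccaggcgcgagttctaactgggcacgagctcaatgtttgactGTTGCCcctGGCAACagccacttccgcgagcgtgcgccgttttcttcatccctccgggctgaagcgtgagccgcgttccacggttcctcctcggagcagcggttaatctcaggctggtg
Cfap161: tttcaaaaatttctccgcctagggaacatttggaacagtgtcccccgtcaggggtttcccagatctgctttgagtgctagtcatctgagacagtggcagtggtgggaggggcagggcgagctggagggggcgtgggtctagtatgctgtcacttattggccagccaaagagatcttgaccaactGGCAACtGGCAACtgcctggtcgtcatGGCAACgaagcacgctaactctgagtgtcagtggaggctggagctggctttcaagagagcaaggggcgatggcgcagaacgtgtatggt
Spag16: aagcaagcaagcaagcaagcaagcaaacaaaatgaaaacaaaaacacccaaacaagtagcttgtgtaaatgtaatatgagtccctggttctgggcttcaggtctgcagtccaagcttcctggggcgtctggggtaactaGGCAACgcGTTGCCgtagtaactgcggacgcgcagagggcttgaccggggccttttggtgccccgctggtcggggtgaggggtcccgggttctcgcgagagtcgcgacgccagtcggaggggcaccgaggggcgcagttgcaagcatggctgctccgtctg
Dnah10: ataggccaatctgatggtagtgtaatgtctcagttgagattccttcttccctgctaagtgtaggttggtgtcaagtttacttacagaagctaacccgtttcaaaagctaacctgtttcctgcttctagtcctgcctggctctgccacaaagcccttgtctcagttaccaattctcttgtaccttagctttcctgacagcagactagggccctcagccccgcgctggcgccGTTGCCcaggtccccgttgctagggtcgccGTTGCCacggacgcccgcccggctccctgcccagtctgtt
Dnah9: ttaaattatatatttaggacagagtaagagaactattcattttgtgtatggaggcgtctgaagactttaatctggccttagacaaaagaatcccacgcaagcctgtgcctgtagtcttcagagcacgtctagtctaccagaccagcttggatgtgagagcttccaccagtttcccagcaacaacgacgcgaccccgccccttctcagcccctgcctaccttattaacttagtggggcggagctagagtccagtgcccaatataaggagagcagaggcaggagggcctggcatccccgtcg

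Cfap298 held 4 cores upstream of the start, which form 2 inverted pairs. Cfap161 held 3 cores and Spag16 and Dnah10 held 2 each, while the 300 bases of Dnah9 held none. Among members whose level followed the other members across libraries (Pearson r above 0.5, as described below), 9 of 29 with a promoter entry held a core. Among the remaining tested members it was 13 of 24. These counts describe exact strings in a window, variants of the core were not counted, and no binding was measured. The promoter of Dnah6, for example, held gttgctaagcaac and counted as 0 cores.

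The libraries held 20331737 to 77458200 counts each (median 43516282). In 29 libraries the Xist level went against the labelled sex, and 29 libraries stood apart by a low total or a low correlation with the others, of which 14 were of generation 21, 6 of generation 22 and 9 of generation 23. Summed over 9 genes of spiny projection neurons, the main neurons of the striatum, medians were 6782, 6594 and 6142 CPM in generations 21, 22 and 23. The lowest libraries were at 162.9, 1200 and 3322 CPM, so the tissue label did not hold in these markers for every library. Below, CPM are scaled with TMM factors, spreads are SDs over libraries, and log2 fold changes carry a standard error (SE).

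Summed over the 65 genes, motile cilia transcripts came to a median of 558 CPM, and single libraries ranged from 293.8 to 1519 CPM. The mean level was at least 10 CPM for 15 members and under 1 CPM for another 15, and 56 members had counts in every library. Per kb of exonic length, the highest mean levels belonged to Cfap36 at 19.9 CPM per kb, Cfap298 at 8.29 and Cfap97 at 6.25, all of the mixed group of cilia and flagella associated proteins. Next were the inner arm heavy chain Dnah6 at 5.59 CPM per kb, the regulatory complex subunit Drc1 at 5.54, the spoke head protein Rsph1 at 5.42 and the central apparatus protein Cfap54 at 4.86. The inner arm heavy chain Dnah14 was lowest of the tested members at 0.0107 CPM per kb, with 0 counts in 24 libraries.

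**Figure D1:**
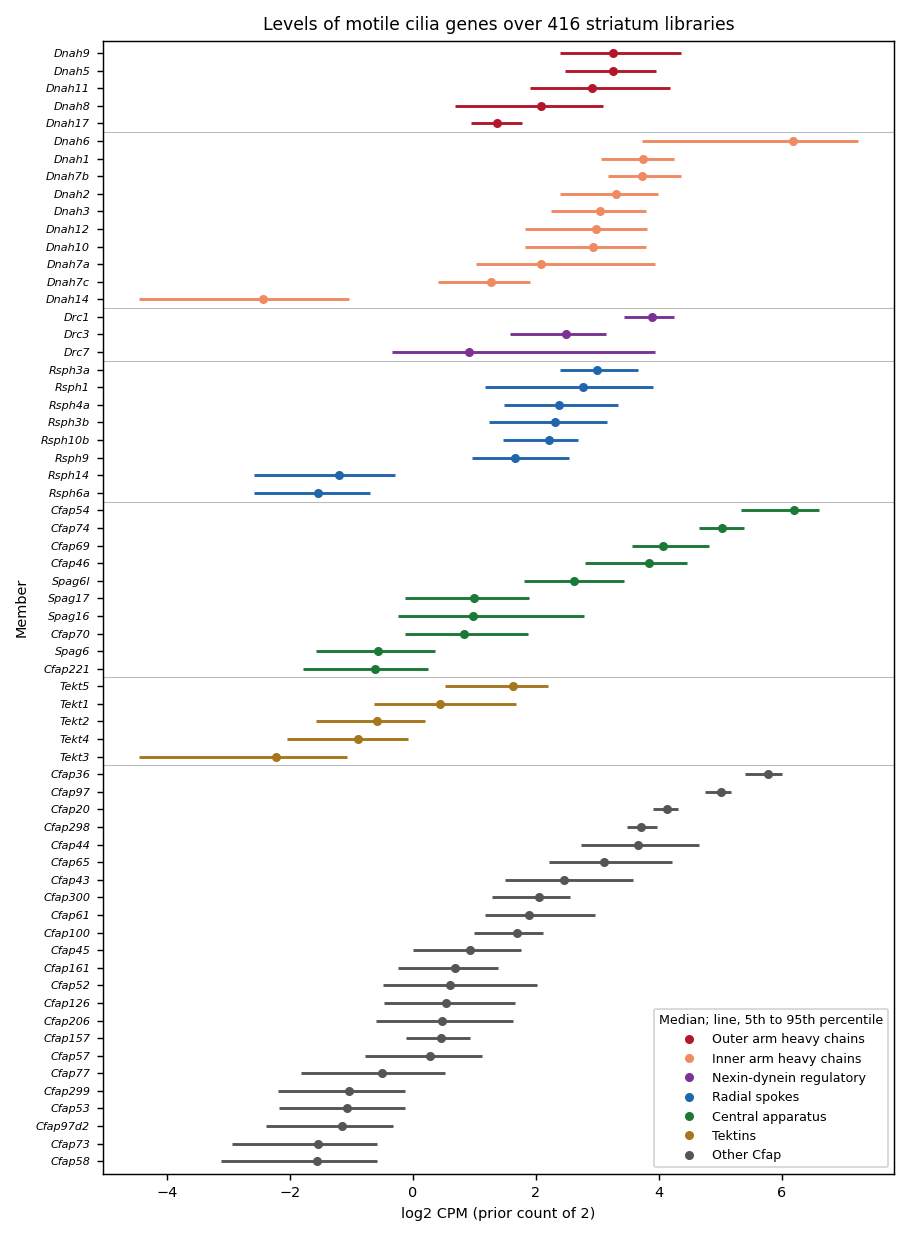
Median log2 CPM of the 64 tested members over 416 libraries, with a line for the 5th to 95th percentile, ordered by structural class. Dnah6 and Drc7 have the longest lines, and Cfap36, Cfap97, Cfap20 and Cfap298 combine high levels with short ones.

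Among the outer arm heavy chains, Dnah9 and Dnah5, the motors of ependymal and airway cilia, lay close to each other. Dnah9 averaged 10.9 ± 6.49 CPM (0.682 CPM per kb) and Dnah5 9.84 ± 3.41 CPM (0.630 CPM per kb). Dnah11, known in human airway cilia from the part near the base, averaged 8.72 ± 5.39 CPM. Dnah8 and Dnah17, the outer arm chains of the sperm tail, were lower per length, at 0.165 and 0.160 CPM per kb. All 5 were detected in every library.

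Of the inner arm heavy chains, Dnah6 averaged 74.1 ± 43.1 CPM and was highest per length. Dnah1, known from the inner arms of the sperm tail, followed at 1.03 CPM per kb. Dnah2, Dnah12, Dnah3 and Dnah10 lay between 0.506 and 0.685 CPM per kb. The 3 copies Dnah7a, Dnah7b and Dnah7c share sequence: 19.1%, 14.3% and 23.9% of their 100-base transcript windows also occur in another gene. Their estimated counts therefore depend on how the authors' counting shared reads among them.

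In the nexin-dynein regulatory complex, Drc1, a scaffold subunit, averaged 14.9 ± 2.59 CPM, Drc3 5.70 ± 1.89 CPM and Drc7 3.41 ± 6.54 CPM. Per length, Drc1 was at 5.54, Drc3 at 1.26 and Drc7 at 1.14 CPM per kb. Among the spokes, Rsph1 led, and the stalk gene pair Rsph3a and Rsph3b lay at 2.76 and 1.69 CPM per kb. These 2 copies share 44.7% and 51.3% of their windows, nearly all with each other, so their split is uncertain. The spoke head genes Rsph9 and Rsph4a lay at 2.16 and 1.54 CPM per kb, and Rsph6a, the head protein of sperm spokes, at 0.128 CPM per kb.

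Of the central apparatus, Cfap54 averaged 71.2 ± 17.8 CPM (4.86 CPM per kb) and Cfap74 32.7 ± 5.14 CPM (3.29 CPM per kb). Spag6l, the mouse gene known to be needed for ependymal ciliary beating, averaged 6.52 ± 2.67 CPM (1.43 CPM per kb), and its relative Spag6 0.681 ± 0.306 CPM (0.201 CPM per kb). Spag16 and Spag17, which anchor the central pair projections, averaged 2.46 ± 2.28 and 2.06 ± 0.910 CPM. The tektins, filament proteins inside the doublet wall, were led by Tekt5 at 1.67 and Tekt1 at 0.940 CPM per kb, and Tekt3 was lowest at 0.109 CPM per kb.

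Across the generations, 49 of the 64 tested members passed an adjusted p of 0.05 between generations 23 and 21 (edgeR's quasi-likelihood test, Benjamini-Hochberg over 22968 genes). Of these 44 were lower and 5 higher in generation 23. That was 76.6% of the members, 7.81% higher and 68.8% lower, against 58.3% of all genes tested, 25.8% higher and 32.6% lower. The median log2 fold change was -0.21 over the members and -0.02 over all genes. Without the 29 libraries that stood apart the median over the members was -0.13, and 41 members passed, 35 lower and 6 higher, against 56.9% of all genes. Between generations 22 and 21, 16 members passed (12 lower, 4 higher), or 25% against 46.6% of all genes, of which 22.1% were higher and 24.5% lower. Between generations 23 and 22, 12 passed (11 lower, 1 higher), or 18.8% against 18.2% of all genes, with 8.53% higher and 9.63% lower. The 3 comparisons share libraries, and their values are given side by side only. Counting any difference among generations, 52 members passed, against 63.8% of all genes.

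The generation label accounted for little of each gene's spread between animals, with a median of 1.86% of the variance of log2 CPM over members (highest 13.1%, Cfap97) and 2.55% over all genes. The groups overlapped for every member. The summed level of all 65 genes had medians of 586, 563 and 527 CPM in generations 21, 22 and 23, with ranges of 293.8 to 1519, 360.2 to 983 and 363.7 to 875 CPM. Most of that sum came from 28 members that did not follow the others across libraries (or were not tested), with medians of 413.4, 405.3 and 390.4 CPM in the 3 generations. The 37 members that did follow (r above 0.5, as described below) had medians of 169.04, 154.7 and 135.6 CPM. As these are bulk samples, fewer ciliated cells in a sample and less RNA per ciliated cell cannot be told apart. Generation also cannot be told apart from anything else that changed between these cohorts, since the labels give no date or processing batch.

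**Figure D2:**
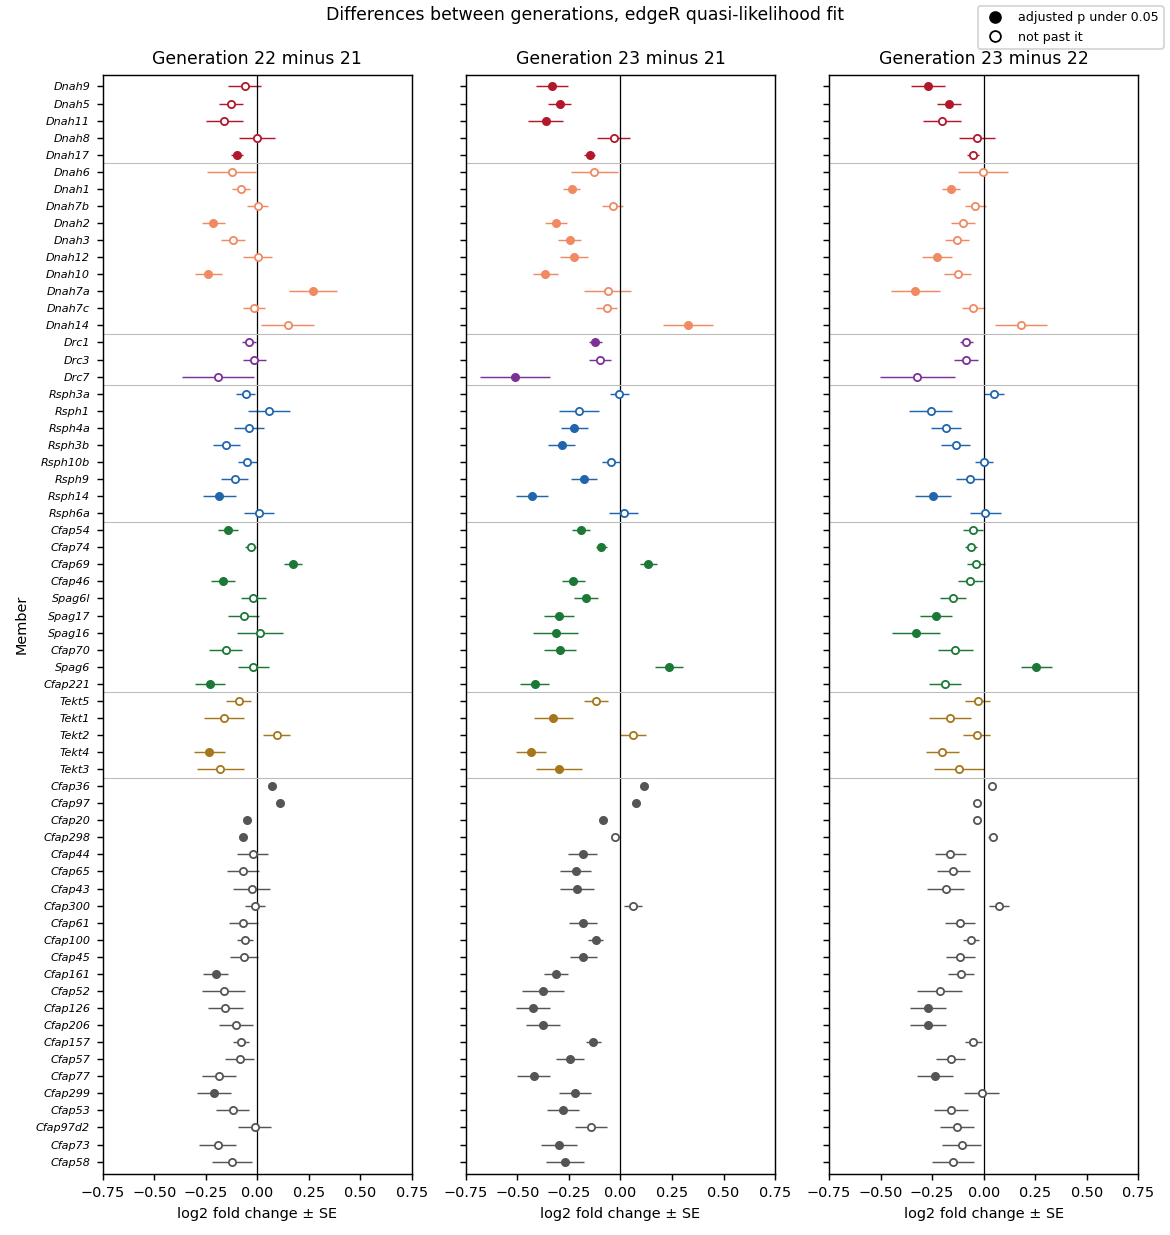
Log2 fold changes with their SE for the 64 tested members, in 1 panel per pair of generations and coloured by structural class. Filled points passed an adjusted p of 0.05: 49 between generations 23 and 21, of which 44 lie left of 0.

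The outer arm chains of motile cilia fell together in generation 23. Dnah9 had medians of 10.9, 9.81 and 8.38 CPM in generations 21, 22 and 23, with ranges of 1.69 to 75.4, 2.82 to 55.2 and 3.38 to 31.4 CPM. The highest library was lower in each later generation and the lowest library higher, and the groups overlapped widely. Its log2 fold change was -0.33 ± 0.08 between generations 23 and 21 (adjusted p = 6.1e-05) and -0.27 ± 0.08 between generations 23 and 22 (adjusted p = 0.0105), by edgeR. Dnah5 fell by 0.29 and Dnah11 by 0.36 on the log2 scale between generations 23 and 21. The sperm-type chain Dnah17 also fell, by 0.15, while Dnah8 did not pass (-0.03).

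Of the 10 inner arm chains, 5 fell and 1 rose between generations 23 and 21, where 32.6% of all genes fell and 25.8% rose. Dnah10 had medians of 9.08, 7.42 and 6.91 CPM in generations 21, 22 and 23 (ranges 1.03 to 31.7, 2.53 to 17.8 and 1.88 to 15.5 CPM). It fell by 0.36 on the log2 scale (adjusted p = 4.3e-08, edgeR), and was already lower in generation 22 than in generation 21 (-0.24 ± 0.07, adjusted p = 0.00103). Dnah2, an inner arm chain of the double-headed arm, had -0.31 and -0.21 in the same comparisons and passed in both. Dnah1, Dnah3 and Dnah12 fell by 0.24, 0.25 and 0.22. Dnah14, at a median of 0.167 CPM in generation 23 against 0.124 CPM in generation 21, rose by 0.33 ± 0.12 (adjusted p = 0.0131). Dnah6, the most abundant chain, did not pass in any comparison: its medians were 77.7, 70.4 and 69.7 CPM in generations 21, 22 and 23, and the ranges 0.915 to 217.2, 5.11 to 190 and 11.2 to 178.5 CPM.

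Drc7 had the most negative fitted change of all members between generations 23 and 21, -0.51 ± 0.17 (adjusted p = 0.00556). It rests on few libraries: without the library male generation 21 replicate 26 the value was -0.27 (adjusted p = 0.141), and without the 29 libraries that stood apart -0.08 (adjusted p = 0.633), by edgeR. Medians were 2.28, 1.83 and 1.55 CPM in generations 21, 22 and 23, with highest libraries at 92.4, 31.1 and 22.9 CPM. Drc1 fell by 0.12, and Drc3 did not pass (-0.10).

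Among the spokes, 4 of 8 fell and none rose between generations 23 and 21, against 32.6% and 25.8% of all genes. Rsph14, a spoke-associated protein, fell by 0.43 ± 0.08 (adjusted p = 5.14e-07, edgeR) at medians of 0.347 CPM in generation 23 and 0.460 CPM in generation 21. Rsph3b, Rsph4a and Rsph9 fell by 0.29, 0.22 and 0.18. Rsph1, the most abundant spoke gene, had medians of 6.18, 7.98 and 6.66 CPM in generations 21, 22 and 23 and did not pass in any pair.

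Of the central apparatus genes, 8 of 10 fell and 2 rose between generations 23 and 21, against 32.6% and 25.8% of all genes. Cfap221 had medians of 0.560 CPM in generation 23 and 0.730 CPM in generation 21 and fell by 0.42 ± 0.07 (adjusted p = 3.48e-08, edgeR). Spag17, Spag16 and Cfap70 fell by 0.30, 0.31 and 0.29. Cfap69, a central apparatus protein that also occurs in olfactory cilia, rose by 0.14 ± 0.04 (adjusted p = 0.00387). Its medians were 15.9, 17.1 and 17.5 CPM in generations 21, 22 and 23. Spag6 rose in generation 23 against both earlier generations, by 0.24 ± 0.07 over generation 21 (adjusted p = 0.00193) and 0.25 ± 0.07 over generation 22 (adjusted p = 0.00852). It was the only member to rise between generations 23 and 22. Its level followed the cortical excitatory neuron markers across libraries (r = 0.572 over 416 libraries), which rose themselves, as described below. With that marker score as a covariate, its change between generations 23 and 21 was -0.16 (adjusted p = 0.0222), and that of Dnah14, the member with the next highest r (0.341), was -0.04 (adjusted p = 0.80).

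The tektins Tekt4, Tekt1 and Tekt3 fell between generations 23 and 21, by 0.43, 0.33 and 0.30, and Tekt2 and Tekt5 did not pass. Tekt4 had medians of 0.396 CPM in generation 23 and 0.579 CPM in generation 21 (adjusted p = 3.36e-08). Of the 23 tested members of the mixed group, 18 fell and 2 rose. Over all genes 32.6% fell and 25.8% rose in that comparison. Cfap126 (Flattop), which helps to place basal bodies in multiciliated cells, had medians of 1.65, 1.43 and 1.18 CPM in generations 21, 22 and 23 and fell by 0.43 ± 0.08 between generations 23 and 21 (adjusted p = 1.65e-06). Cfap77 fell by 0.42, Cfap52 by 0.38, Cfap206 by 0.37 and Cfap161 by 0.31. The risers were Cfap36 and Cfap97. Cfap36 had medians of 52.9, 55.3 and 56.3 CPM and Cfap97 of 31.3, 33.5 and 32.5 CPM in generations 21, 22 and 23. Their log2 fold changes between generations 23 and 21 were 0.11 ± 0.02 and 0.08 ± 0.01. Both were also higher in generation 22 than in generation 21, by 0.07 and 0.11. Cfap20, an inner protein of the doublet microtubule that varied little between libraries, fell by 0.08 (adjusted p = 3.95e-08).

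Markers of ependymal cells that are not members moved with these genes. All 10 were lower in generation 23 than in generation 21, against 32.6% of all genes. Foxj1 also counts among the regulators below, and Dynlrb2 among the other axonemal genes. The marker score is thus not independent of cilia genes. The markers' summed level had medians of 31.8, 27.5 and 24.5 CPM in generations 21, 22 and 23 (ranges 8.18 to 120, 11.7 to 61.2 and 9.19 to 50.3 CPM). Foxj1 fell by 0.35 and Tmem212 by 0.55 on the log2 scale. With the ependymal marker score as a covariate, the median change of the members between generations 23 and 21 was 0.05. Then 27 of 64 passed, 18 higher and 9 lower, against 54.8% of all genes, and of the 49 genes called without it 14 kept their direction and 12 were called in the opposite one. Called higher with the covariate were Drc7 (0.29), Spag16 (0.26), Dnah12 (0.21), Cfap43 (0.20) and Cfap65 (0.19). Cfap221 (-0.12), Cfap46 (-0.13), Tekt4 (-0.17), Dnah2 (-0.09), Dnah1 (-0.09) and Dnah17 (-0.14) stayed lower, as did Cfap20 (-0.07), Cfap54 (-0.12) and Rsph3b (-0.23).

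Markers of neighbouring tissue moved too. Their counts between generations 23 and 21 stand beside 25.8% of all genes called higher and 32.6% called lower. Of 8 cortical excitatory neuron markers 7 were higher in generation 23 than in generation 21, and their sum had medians of 80.2, 95.1 and 220.5 CPM in generations 21, 22 and 23 (ranges 42.7 to 822, 50.1 to 1088 and 53.2 to 861 CPM). With their score as a covariate 38 of 64 members passed between generations 23 and 21, against 56.4% of all genes. Between generations 23 and 22, 1 member then passed, against 5.47% of all genes. Of 11 choroid plexus markers 2 were lower (Folr1 and Sostdc1). Their sum had medians of 39.1, 30.04 and 26.8 CPM and highest libraries of 16387, 7268 and 6048 CPM. With the choroid plexus score as a covariate 43 members passed, against 58.1% of all genes. Of 8 markers of the neurogenic niche, which also lies in the ventricle wall, 6 were lower in generation 23 than in generation 21 and none higher (median log2 fold change -0.18). Of 6 thalamic neuron markers 5 were called lower (median -0.67), and all 6 were called lower in generation 22 than in generation 21. Their summed level did not fall at the median, with 147.01, 153.1 and 155.99 CPM in generations 21, 22 and 23. The highest libraries were at 3582.3, 213.29 and 436.47 CPM. The part of the highest libraries in these calls was not tested for these markers. Of the 9 spiny projection neuron markers 5 were lower and none higher in generation 23 than in generation 21 (median -0.12). Libraries labelled female alone called 22 members between generations 23 and 21, against 45.3% of all genes, and libraries labelled male alone 48, against 47.2%. Between generations 23 and 22 these fits called 0 and 1 members, against 4.08% and 4.57% of all genes. The sex by generation interaction was called for 0 of 64 members by edgeR (1 at an unadjusted p under 0.05, and 0.322% of all genes called). The part of cell composition in these differences was not tested further.

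Across libraries the members divided into genes that rose and fell together and genes that did not. The other members were averaged as z scores, and 37 of 64 genes correlated with that average at r above 0.5 over 416 libraries, 19 of them above 0.8. The highest were Cfap65 (0.926), Dnah9 (0.908), Rsph4a (0.906), Dnah11 (0.893) and Cfap44 (0.890). Among 22904 other tested genes, 452 (1.97%) reached r above 0.5 with the members' score. The 5 genes below 0 were Cfap36 (-0.170), Spag6 (-0.126), Cfap97 (-0.0462), Rsph6a (-0.0440) and Dnah8 (-0.0284). The points of each coefficient are the same libraries, with their depth and dissection, and the coefficients are given as a description.

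**Figure D3:**
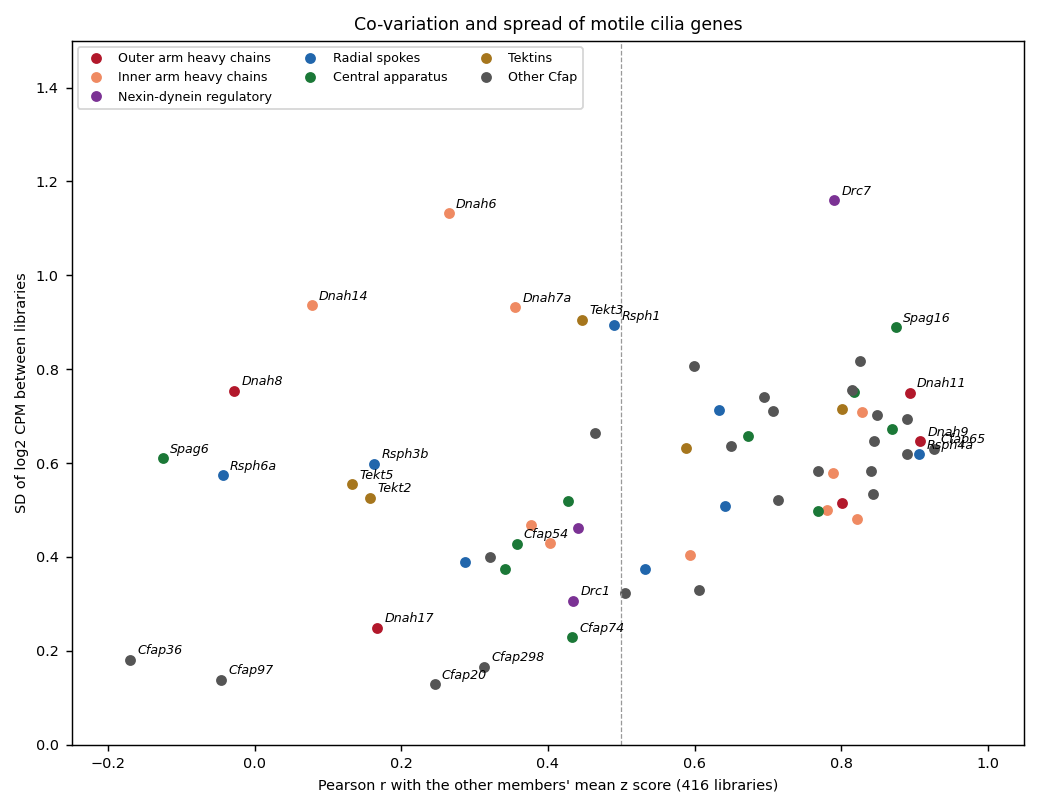
Each tested member's r with the other members' mean z score (x axis, dashed line at 0.5) against the SD of its log2 CPM between libraries (y axis), coloured by structural class. A cluster of members lies at high r, Dnah6, Dnah7a and Dnah8 vary widely at low r, and Cfap36, Cfap97, Cfap20 and Cfap298 vary little.

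All pairs of tested members had a median r of 0.285 (2016 pairs, 87.6% positive), between 0.212 and 0.404 within the 6 groups of sex and generation. The 37 followers alone had a median pair r of 0.605, every pair being positive (lowest 0.233), and the other 27 a median of 0.062. Dnah9 and Dnah11 correlated at 0.876 and Dnah12 and Spag17, of different complexes, at 0.910, the highest pair of all. Some related genes of a class moved together and others did not. Dnah5 and Dnah9 correlated at 0.755, whereas Dnah9 and the sperm-type chain Dnah17 correlated at 0.176, Rsph4a and its sperm-type relative Rsph6a at -0.0707, and Spag6 and Spag6l at -0.131.

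Genes outside the rule whose level was most like the members' score were, from the highest r, Spata18, Lrrc23, Hydin, Dnali1, Ttc21a, Ak7, Foxj1, Ubxn10, Dynlrb2 and Dlec1, with r from 0.906 to 0.858 over 416 libraries. Hydin is a central apparatus protein, Lrrc23 a radial spoke protein and Dnali1 an inner arm light chain.

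For 10 gene pairs the correlation was tested by permutation of libraries (100000 draws, two-sided, adjusted over the 10). The draws ignored sex and generation, so shifts of both genes between generations also enter these p-values. Foxj1 correlated with Dnah9 at r = 0.852 (rho = 0.854, adjusted p = 1e-05, the smallest the draws can give), and at 0.841 without the 2 libraries farthest from the Foxj1 median. With Cfap126 it gave r = 0.839 (rho = 0.782), with Tekt1 0.828 (rho = 0.755), with Rsph4a 0.803 (rho = 0.767), with the intermediate chain Dnaic2 0.755 (rho = 0.70), and with Spag6l 0.671 (rho = 0.607), each at an adjusted permutation p of 1e-05 for r and rho. Without the 2 farthest libraries these 5 lay between 0.657 and 0.827, and all 6 pairs were positive within each of the 6 groups. Drc1 followed Foxj1 less closely (r = 0.356, rho = 0.369, 0.365 without the 2 farthest, adjusted permutation p = 1e-05). Over all tested genes, the largest absolute r of Drc1 was with Ankrd63 (0.710), Zmat4 (-0.698) and Efnb2 (0.693), none of them a member. Cfap36 went against Foxj1 (r = -0.242, rho = -0.209, -0.214 without the 2 farthest, adjusted permutation p = 1e-05). Cfap97 did so too (r = -0.213, adjusted permutation p = 3e-05, rho = -0.145, adjusted permutation p = 0.003, and -0.163 without the 2 farthest). For each of these last 2, r was negative in 5 of the 6 groups. Within groups r lay between -0.304 and 0.0384 for Cfap36 and between -0.268 and 0.0171 for Cfap97. Ttr, the transthyretin gene of the choroid plexus, correlated with Dnah9 at r = 0.573 (rho = 0.442, 0.548 without the 2 farthest, adjusted permutation p = 1e-05) and within groups at 0.452 to 0.755.

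The members' mean z score followed the score of the 10 ependymal markers at r = 0.930 (0.887 to 0.953 within the 6 groups), the neurogenic niche score at 0.662 (0.475 to 0.757, and 0.727 over the libraries that did not stand apart), the choroid plexus score at 0.522 (0.414 to 0.704), and the cortical score at -0.174 (-0.356 to 0.173). The ependymal score holds Foxj1 and Dynlrb2, as stated above. The members' score had an r of 0.0676 with the log2 total count and -0.0129 with the mitochondrial share. Of single libraries, male generation 21 replicate 26 was highest for 43 of the 65 members. There Dnah9 reached 75.4 CPM, Tekt1 15.5 CPM and Foxj1 47.1 CPM, and Ttr 13849 CPM. The lowest score belonged to female generation 21 replicate 34, with Dnah9 at 1.99 CPM and Spag17 at 0.0407 CPM. That library stood apart and had a thalamic marker score of 8.83. Next came male generation 21 replicate 55, which did not stand apart (thalamic score -0.58), with Dnah9 at 1.69 CPM and Spag17 at 0 CPM. Without male generation 21 replicate 26, 44 members passed between generations 23 and 21 (39 lower, 5 higher), against 13249 of 22963 genes in all.

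When each member was regressed on the ependymal and choroid plexus scores together, the members that followed the others split further (a description added after the data were seen). The 2 scores correlated with each other at 0.361. Each score was first scaled to its SD over the libraries fitted. Drc7 had by far the steepest choroid plexus slope, 0.811 log2 CPM per SD of the score at an ependymal slope of 0.521. The 2 scores took up 91.8% of its variance. Spag16 (0.401), Cfap52 (0.359), Tekt1 (0.352), Cfap43 (0.284), Cfap126 (0.267) and Dnah11 (0.256) followed. At the other end Dnah12 (-0.153), Dnah10 (-0.115), Dnah5 (-0.110), Dnah3 (-0.0923) and Spag17 (-0.0891) had slopes below 0 on the choroid plexus score and ependymal slopes of 0.450 to 0.688. Without the libraries that stood apart, and with the scores scaled over the rest, Drc7 kept a choroid plexus slope of 0.646 and Dnah12 one of -0.0994. The outer arm chains lay on both sides: Dnah11 and Dnah9 (0.233) had positive choroid plexus slopes and Dnah5 a negative one. Drc7 exceeded 10 CPM in 30 libraries, lay between 5 and 10 CPM in 11, and was lower in all others.

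The widest spreads did not all belong to genes that followed the ependymal markers. The SD of log2 CPM had a median of 0.59 over members and 0.30 over all genes tested. Among members whose mean log2 CPM was 0 or more, it was widest for Drc7 (1.16), Dnah6 (1.13), Dnah7a (0.93), Rsph1 (0.89) and Spag16 (0.89), followed by Cfap52 (0.82) and Dnah8 (0.75). After the ependymal score was taken out by regression, the SD was 1.09 for Dnah6, 0.87 for Dnah7a, 0.80 for Rsph1 and 0.75 for Dnah8. It was 0.83 for Drc7, 0.53 for Spag16 and 0.52 for Cfap52. For Spag17 it was 0.37 after and 0.75 before. Dnah6 ranged from 0.915 to 217.2 CPM, and its 90th percentile was 7.77 times its 10th. The narrowest were Cfap20 (0.13), Cfap97 (0.14), Cfap298 (0.17), Cfap36 (0.18) and Cfap74 (0.23).

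Dnah7a fell into 2 ranges. It lay above 10 CPM in 86 libraries, between 7 and 10 CPM in 11, and below 7 CPM in all others. Of the 86, 25 were of generation 21, 31 of generation 22 and 30 of generation 23. Dnah7b and Dnah7c, its near copies, did not follow it (r = -0.00214 and 0.0535), though they followed each other (0.482). Dnah7a was called higher in generation 22 than in generation 21 (0.27 ± 0.12, adjusted p = 0.0474) and lower in generation 23 than in generation 22 (-0.33 ± 0.12, adjusted p = 0.0342). The first of these calls was lost when any one of 3 libraries was left out, namely female generation 21 replicate 34, male generation 21 replicate 55 and female generation 22 replicate 32.

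**Figure D4:**
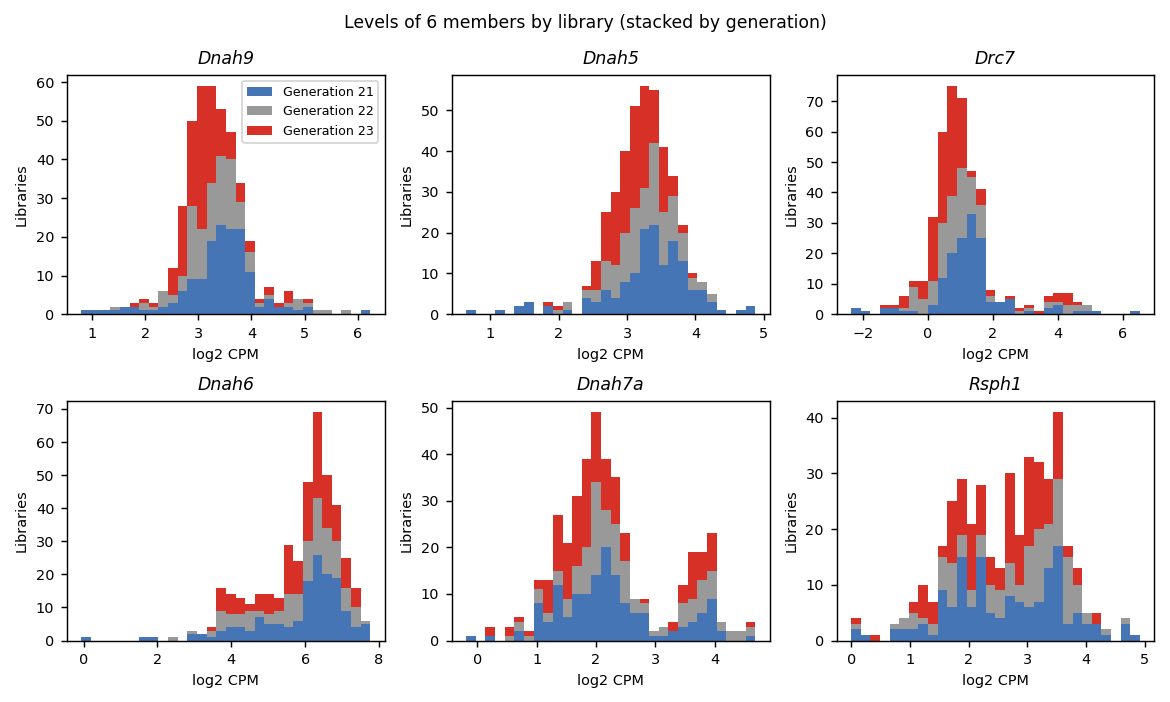
Number of libraries (y axis) by log2 CPM (x axis) for 6 members, stacked by generation. Dnah9 and Dnah5 have a single peak, Drc7 a peak with a right tail, Dnah6 a left tail, Dnah7a 2 separate peaks and Rsph1 a broad, uneven distribution.

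For several members the closest genes by r lay on the same chromosome (a description added after the data were seen, with gene order from GENCODE M21). All 5 closest genes lay on the member's own chromosome for Dnah7a, Dnah8, Rsph3a, Rsph3b and Tekt5, and at least 3 of 5 did for 9 of 64 members (14.1%), against 20.9% of all genes. The members' share was thus not above that of genes in general. Closest to Dnah6 were the overlapping antisense gene Gm20560 (r = 0.937) and the adjacent Gm40377 (0.912), closest to Rsph1 the adjacent Slc37a1 (0.715), and closest to Dnah8 the overlapping Glo1 (0.601). Whether the counts used strand is not given in the sources used here, so reads of Dnah6 and Gm20560, or of Dnah8 and Glo1, may have been shared. For 35 members, Dnah9, Dnah5 and Rsph4a among them, none of the 5 closest genes lay on their own chromosome.

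Between the sexes 1 of 64 members passed, or 1.56%, against 2.86% of all genes (1.55% higher and 1.30% lower in libraries labelled female). Over all genes the share was 4.75% without the 29 libraries whose Xist went against their label and 5.90% without the 29 that stood apart, and 1 and 2 members passed in these fits. The member called, Cfap54, had a median of 70.5 CPM in libraries labelled female (17.3 to 110) and 77.5 CPM in those labelled male (21.7 to 137.7). The ranges overlapped nearly in full, and the log2 fold change was -0.14 ± 0.04 (adjusted p = 0.0150, edgeR). The median change over the members was -0.04, and over all genes -0.00197. None of the genes in the lists of ependymal, choroid plexus, other axonemal, regulator or primary cilium genes passed between the sexes at the adjusted threshold.

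Other axonemal and assembly genes that the naming rule leaves out were set beside the members. Of 37 tested, 26 were lower and 2 higher in generation 23 than in generation 21, with a median log2 fold change of -0.20. Over all genes, 32.6% were lower and 25.8% higher, which also stands beside the regulator counts that follow. The intermediate chains Dnaic1 and Dnaic2 fell by 0.34 and 0.30, Hydin by 0.35 and the assembly factor Dnaaf3 by 0.40. The 2 that rose were the light chain Dnal1 (0.08) and the ruler protein Ccdc39 (0.10). Of 12 tested regulators of the multiciliated state 7 were lower and none higher: Foxj1, Ccno (-0.37), Trp73 (-0.38), Myb (-0.19), Rfx2 (-0.17), Rfx1 (-0.10) and E2f4 (-0.05). Rfx3 did not pass between generations 23 and 21, was higher in generation 22 than in generation 21 (0.13), and was lower in generation 23 than in generation 22 (-0.13).

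Genes of intraflagellar transport and the primary cilium were called in both directions. Of 32 tested, 11 were higher and 14 lower in generation 23 than in generation 21, against 25.8% higher and 32.6% lower of all genes, and the median log2 fold change was -0.02. Their summed level had medians of 953, 950 and 941 CPM in generations 21, 22 and 23. Ift172 differed by -0.02 and Ift88 rose by 0.04. The member score followed the score of this list at r = 0.429, against 0.963 for the other axonemal genes.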

How the data were processed

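Striatal RNA of 416 mice was sequenced after ribosomal depletion with a stranded kit as paired 100 bp reads, per the labels' protocols. The authors deposited estimated counts per Ensembl gene. Which aligner, counter, build and annotation were used is not given in the sources used here. Of 46517 gene IDs, 46005 (98.9%) were named through GENCODE M21, which also gave exonic lengths and gene order. Counts were rounded to whole numbers (23.8% of values were not whole). Genes were filtered with filterByExpr (minimum count 10, over the 6 groups of sex and generation), scaled by TMM and fitted with edgeR 4.0.16's robust quasi-likelihood test (R 4.3.3) on sex and generation, two-sided. P-values were adjusted by Benjamini-Hochberg over 22968 genes and called at 0.05. Each library is its own animal, so p-values measure the spread between animals. The test was tested on simulated counts. Log2 CPM used a prior count of 2. Marker scores were mean z scores of log2 CPM. A library stood apart with a total under 0.5 of the median or a median correlation more than 4 scaled median absolute deviations below the others. Xist was read against 100 CPM. Correlations, figures and motifs used Python 3.11.15 with scipy 1.17.1 and matplotlib 3.10.9.

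The members and the gene lists were chosen with earlier results of these data known. Members were named by rule: the 2 highest per length in each class, up to 6 called per direction in each comparison, the 5 highest and 5 lowest by correlation with the others, and the 5 widest and narrowest spreads. Other members named, the joint slopes, the closest genes, the paired motif and the level limits for Dnah7a and Drc7 were chosen after the values were seen. Antisense genes with member symbols (2) were left out. Alternatives were other normalization (RLE), other filters, DESeq2 1.42.0, marker scores or depth as covariates, and libraries left out.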

Additional observations from a re-analysis of the deposited data

How the results depend on the processing

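Between generations 23 and 21 the count of members called was 49, against 27 with the ependymal score as a covariate (of the 49, 14 were then called in the same direction and 12 in the opposite one) and 22 in libraries labelled female alone. Over all genes it was 13401 of 22968, against 12576 of 22968 and 10018 of 22132. Between generations 22 and 21 the count was 16, against 9 in libraries labelled female alone and 8 in those labelled male alone. Over all genes it was 10706 of 22968, against 8358 of 22132 and 6328 of 22155. Between generations 23 and 22 the count of members was 12, against 7 with no filter on low counts, 7 without the libraries against their labelled sex, 3 with the ependymal and 1 with the cortical score as a covariate, and 0 in libraries labelled female and 1 in libraries labelled male alone. Over all genes 4171 of 22968 were called. In the same order these fits called 3644 of 39485, 3707 of 23024, 2809 and 1257 of 22968, 902 of 22132 and 1013 of 22155. For any generation difference the count of members was 52, against 24 with the ependymal and 32 with the cortical score, and 20 in libraries labelled female alone. Over all genes it was 14643 of 22968, against 13712 and 13589 of 22968 and 11045 of 22132. Between the sexes 1 member was called, against 5 with the choroid plexus score, 2 with the ependymal score and 2 without the libraries that stood apart. Over all genes it was 656 of 22968, against 817 and 707 of 22968 and 1351 of 22904. The median r between members, 0.285, was 0.404 within male generation 21 and 0.212 within male generation 23. The cause of these shifts was not tested.

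Leaving out 1 of 6 influential libraries at a time gave 44 to 49 members between generations 23 and 21, 15 to 20 between generations 22 and 21, 9 to 13 between generations 23 and 22, 43 to 52 for any generation difference and 1 between the sexes. In the same order, 13249 to 13500, 10520 to 10839, 4006 to 4329, 14453 to 14704 and 585 to 749 of all genes were called. Signs turned between generations 23 and 21 for Dnah14 (-0.041) and Spag6 (-0.16) with the cortical score, and for Drc7 (0.29) and Cfap77 (0.027) with the ependymal score. Of 509 alternative values for the 29 named comparisons of members, 444 kept direction and call, 61 lost the call and 4 turned. Among the calls lost, Spag16 and Cfap126 between generations 23 and 22 were lost without female generation 22 replicate 32, and Dnah9 in that comparison without the libraries against their labelled sex. The interaction was called for 0 members by edgeR in all 3 settings, with 1 member at an unadjusted p under 0.05 in the first. Members under 1 CPM rest on few counts. No paired analysis was possible because the replicate numbers follow accession order and pair no animals.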
